A study of Mus musculus with 8 samples.

Results

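The RLTR names are rodent long terminal repeat (LTR) elements, taken here as every repeat name in the deposited tables that begins with RLTR, apart from the RLTRETN names. This rule found 164 of the 838 repeat names in the tables of J1 mouse embryonic stem (ES) cells, with 157 of 767 names in the knockdown table and 163 of 834 in the overexpression table. The 2 tables shared 156 RLTR names; RLTR19D was in the knockdown table alone, and 7 names were in the overexpression table alone. Of the RLTR names, 10 end in -int and stand for the internal, coding part of a provirus, and the others are LTR names.

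RNA-seq was performed on 8 libraries in 4 groups of 2. KD Zscan4 cells carried a pSuper puro vector with an shRNA against Zscan4, and KD control cells were labelled as a random control and wild type. OE Zscan4 cells carried pCMV-tag2 with the coding region of Zscan4c, and OE control cells were labelled as a control and wild type. All groups were J1 cells of one strain, grown on gelatin in 15% serum with 10 ng/ml LIF, and received 1000 ng of plasmid. Selection was by puromycin for 7 days in the knockdown arm and by G418 for 10 days in the overexpression arm, and single clones were then picked. Each library of a group is a numbered replicate, and no label says whether the replicates are separate clones or cultures. The p-values therefore measure the spread between these libraries, which may be technical.

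Endogenous retroviruses are remnants of past infections that are passed on in the genome. Their LTRs hold promoter and enhancer sequence, so an LTR can drive the provirus it flanks or, when it stands alone, a neighbouring host gene. Mouse ES cells hold many proviruses silent through KRAB zinc finger proteins, the corepressor Trim28, the histone methyltransferase Setdb1 and DNA methylation, while some LTR families carry binding sites of pluripotency factors and are transcribed. Zscan4 is a family of zinc finger genes expressed in the 2-cell embryo and in a small share of ES cells that also transcribe the endogenous retrovirus MERVL.

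Values are the authors' normalised read values per repeat name, summed over all copies of that name, and a change is the Zscan4 group minus its own control on the log2(value + 1) scale, which understates the change of low names. A name was called at a false discovery rate of 0.05 in limma over all names of the table. In the overexpression fit the spread was pooled over all names. The SE and p-value of a name there do not reflect its own replicates alone. The libraries held 309644 to 470404 repeat reads, of which 15623 to 21945 fell in RLTR names, beside 17.39 to 22.38 M reads in genes. An RLTR name had a median of 142 reads over the 4 knockdown libraries and 198 over the 4 overexpression libraries, and none had fewer than 10. OE control replicate 1 stood apart from its partner: its names lay 0.34 lower in median on the log2 scale, against shifts of 0.02 to 0.17 in size between the replicates of the other groups. In the knockdown arm the median of all repeat names was 0.26 above KD control, so changes in that arm are also given relative to this median. The median of all names in the overexpression arm was -0.01.

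Zscan4 itself followed the labels in every library. The 9 measured Zscan4 family genes summed to 97.4 and 136 in KD Zscan4, against 3752 and 3336 in KD control, and to 5878 and 5311 in OE Zscan4, against 360.4 and 389 in OE control. In OE Zscan4, reads of the Zscan4c plasmid cannot be told apart from those of the cells' own Zscan4 genes. All 9 genes fell in the knockdown and all 9 rose in the overexpression. MERVL-int, the internal part of the retrovirus of the 2-cell stage, moved with them, at 1032 and 1378 in KD Zscan4 against 5599 and 5211 in KD control, and at 7862 and 7256 in OE Zscan4 against 804 and 891 in OE control.

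In the knockdown, 15 of 157 RLTR names were called (9.55%), against a background of 8.87% of all repeat names, and in the overexpression 8 of 163 (4.91%), against 3.84%. Of these, 4 were called in both arms, and all 4 changed in opposite directions. RLTR6B_Mm, RLTR13G and RLTR30D_RN fell in KD Zscan4 and rose in OE Zscan4, and RLTR34B_MM did the reverse. Over all repeat names, 14 were called in both arms, of which 12 changed in opposite directions. When the libraries were scaled by trimmed mean of M values over the repeat names (TMM), 7 RLTR names were called in both arms, RLTR4_Mm, RLTR4_MM-int and RLTR1A2_MM beside these 4, and 25 of all names, with 7 and 23 in opposite directions. In bulk RNA, a smaller number of cells that transcribe a name and less RNA in each cell cannot be told apart.

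RLTR6B_Mm shares its number with the LTR of VL30, a mouse retrotransposon family whose LTRs respond to cell signals. It was at 76.0 and 65.7 in KD Zscan4, against 231 and 204 in KD control, and its fold was 0.329 (log2 -1.60 ± 0.18 SE, adjusted p = 4.18e-07, limma). The groups did not overlap, and both KD Zscan4 libraries were low; relative to the median name the change was -1.86. In the other arm it was at 251 and 243 in OE Zscan4, against 56.5 and 67.7 in OE control, a fold of 3.95 (log2 1.98 ± 0.25 SE, adjusted p = 5.63e-13, limma). RLTR6B_Mm was low in KD Zscan4 and OE control and high in KD control and OE Zscan4. The other names of the same number had smaller changes, of the same sign as RLTR6B_Mm in each arm. RLTR6_Mm was at 60.8 and 69.6 in KD Zscan4 against 76.3 and 71.0 in KD control, and at 90.4 and 71.3 in OE Zscan4 against 64.2 and 75.9 in OE control. RLTR6-int was at 193 and 242 in KD Zscan4 against 267 and 195 in KD control, and at 317 and 259.9 in OE Zscan4 against 215 and 250.3 in OE control. Neither name was called in either arm, and groups overlapped for RLTR6_Mm in the overexpression arm and for RLTR6-int in the knockdown arm. Whether RLTR6B_Mm differed from these 2 names was not tested. MMVL30-int, a VL30 internal name outside the RLTR names, was not called in either arm (log2 0.14 in the knockdown and 0.15 in the overexpression).

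RLTR34B_MM was at 155 and 179 in KD Zscan4, against 48.5 and 51.8 in KD control, with a fold of 3.28 (log2 1.71 ± 0.19 SE, adjusted p = 4.95e-07, limma). It was at 178 and 150.1 in OE Zscan4, against 435 and 410.3 in OE control, with a fold of 0.388 (log2 -1.37 ± 0.23 SE, adjusted p = 2.53e-07, limma). The groups did not overlap in either arm. In these separately scaled values both Zscan4 groups stood between 150.1 and 179, while KD control was the lowest group and OE control the highest. Without OE Zscan4 replicate 1 the overexpression change of RLTR34B_MM was log2 -1.49, and without replicate 2 it was -1.24. Neither was called, with a spread taken from OE control alone. RLTR34C_MM, its neighbour in number, was at 125 and 154 in KD Zscan4 against 87.0 and 75.5 in KD control (log2 0.76 ± 0.19 SE, adjusted p = 0.0135, limma). It was at 126 and 87.2 in OE Zscan4 against 141 and 149.8 in OE control and was not called there. RLTR34D_MM, the other name of number 34, had the opposite signs. Its change was log2 -0.65 in the knockdown and 0.42 in the overexpression, called in neither.

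RLTR13G gave more signal than any other RLTR name. It was at 3781 and 4773 in KD Zscan4, against 7857 and 7263 in KD control, with a fold of 0.562 (log2 -0.83 ± 0.11 SE, adjusted p = 1.03e-05, limma). It was at 5746 and 5907 in OE Zscan4, against 3289 and 3849 in OE control, with a fold of 1.64 (log2 0.71 ± 0.21 SE, adjusted p = 0.0205, limma). Neither pair of groups overlapped. RLTR30D_RN was at 264 and 237 in KD Zscan4, against 375 and 340.3 in KD control (log2 -0.51 ± 0.14 SE, adjusted p = 0.0236, limma). It was at 244 and 253 in OE Zscan4, against 89.1 and 142 in OE control (log2 1.14 ± 0.24 SE, adjusted p = 1.43e-04, limma). For RLTR30D_RN too, the controls took the extremes. Without either OE Zscan4 library the overexpression calls of both names were lost, with a spread taken from OE control alone. The knockdown call of RLTR30D_RN was lost without either KD control library.

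**Figure D1:**
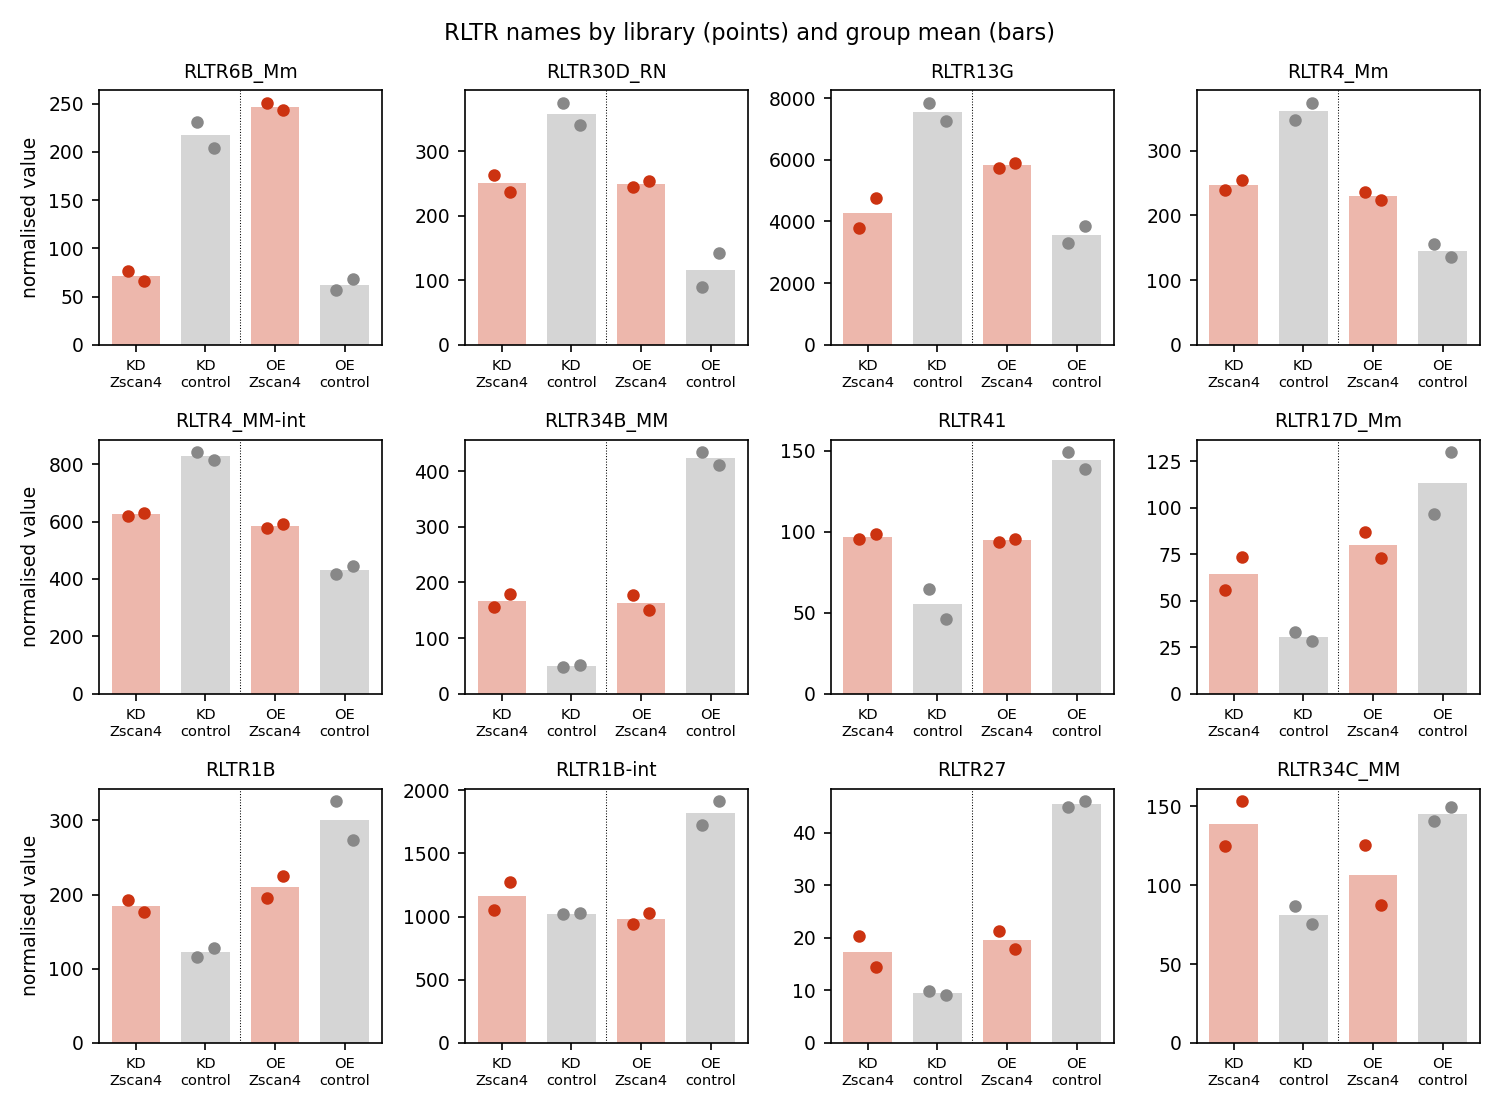
Normalised value (y axis, linear from 0) of 12 RLTR names in KD Zscan4, KD control, OE Zscan4 and OE control; points are the 2 libraries of a group and bars their mean. The arms were scaled separately (dotted line). RLTR6B_Mm is low in KD Zscan4 and OE control, while for RLTR34B_MM, RLTR41 and RLTR30D_RN the controls lie on either side of the Zscan4 groups.

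The murine leukemia virus-related names of number 4 fell together in the knockdown. MuLV-int, a name outside the RLTR names, did not fall there (log2 0.34 ± 0.37 SE, not called), nor did MuRRS-int (log2 0.48 ± 0.30 SE, not called). Both were low names, with knockdown values of 14.7 to 23.3 for MuLV-int and 22.4 to 36.5 for MuRRS-int. A fall of the size of the RLTR4 names might not be called at these SEs. MuRRS4-int rose in the knockdown (log2 0.60, adjusted p = 0.0468, limma), where the median of all names was 0.26. In the overexpression MuLV-int was at log2 0.48, MuRRS4-int at 0.42 and MuRRS-int at -0.13, none of them called. RLTR4_Mm, an LTR name, was at 239 and 254 in KD Zscan4, against 347 and 374 in KD control (log2 -0.55 ± 0.14 SE, adjusted p = 0.0155, limma). RLTR4_MM-int, the internal name, was at 619 and 631 in KD Zscan4, against 844 and 816 in KD control (log2 -0.41 ± 0.12 SE, adjusted p = 0.0341, limma). Both KD Zscan4 libraries lay below both KD control libraries for each name, but without either KD control library the calls were lost (adjusted p = 0.11 and 0.338 for RLTR4_Mm, 0.311 and 0.345 for RLTR4_MM-int, limma). In the overexpression arm RLTR4_Mm was at 236 and 224 in OE Zscan4 against 155 and 135 in OE control, and RLTR4_MM-int at 578 and 591 in OE Zscan4 against 416 and 446 in OE control. These groups did not overlap either, but the names missed the threshold there (log2 0.66, adjusted p = 0.0993, and log2 0.44, adjusted p = 0.377, limma). With TMM, both passed (adjusted p = 0.00344 for RLTR4_Mm and 0.00125 for RLTR4_MM-int, limma). Their changes differed between the arms, by -1.21 ± 0.27 SE for RLTR4_Mm (adjusted p = 2.92e-04, limma) and by -0.85 ± 0.24 SE for RLTR4_MM-int (adjusted p = 0.0072, limma). RLTR1A2_MM moved alike without passing in either arm, with a knockdown change of log2 -0.29 and an overexpression change of 0.61, and its difference between arms was -0.90 ± 0.27 SE (adjusted p = 0.0127, limma). With TMM it passed in both arms (adjusted p = 0.0109 in the knockdown, 0.00205 in the overexpression, limma).

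RLTR1B and its internal name went the other way. RLTR1B was at 193 and 177 in KD Zscan4, against 116 and 128 in KD control (log2 0.59 ± 0.17 SE, adjusted p = 0.0259, limma), which is 0.33 relative to the median name, and the call was lost with TMM over repeat names (adjusted p = 0.297, limma). It was at 195 and 225 in OE Zscan4, against 327 and 274 in OE control, and was not called there (log2 -0.51, adjusted p = 0.289, limma), while with TMM it was (adjusted p = 0.0308, limma). RLTR1B-int was at 1050.0 and 1273 in KD Zscan4 against 1019 and 1024 in KD control, with no call, and its log2 change of 0.18 became -0.08 with TMM. In OE Zscan4 it was at 939 and 1027, against 1725 and 1918 in OE control, a fold of 0.54 (log2 -0.89 ± 0.21 SE, adjusted p = 0.00118, limma). Both OE control libraries were high, and the groups did not overlap. The change differed between the arms by 1.11 ± 0.28 SE for RLTR1B (adjusted p = 0.00222, limma) and by 1.07 ± 0.22 SE for RLTR1B-int (adjusted p = 7.23e-05, limma).

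The other names that fell in OE Zscan4 were RLTR27, RLTR44-int and RLTR17. RLTR27 was at 21.3 and 17.8 in OE Zscan4, against 45.0 and 46.2 in OE control, a fold of 0.44 (log2 -1.19 ± 0.34 SE, adjusted p = 0.0168, limma). It was at 20.3 and 14.5 in KD Zscan4 against 9.87 and 9.02 in KD control, not called, and its difference between arms was 1.99 ± 0.58 SE (adjusted p = 0.0114, limma). RLTR27 is a low name, with values under 50 in all 8 libraries. RLTR44-int was at 25.5 and 17.8 in OE Zscan4, against 43.1 and 55.4 in OE control (log2 -1.16 ± 0.33 SE, adjusted p = 0.0168, limma), and its difference between arms missed the threshold (adjusted p = 0.0562, limma). RLTR17, whose LTRs are known to be bound by pluripotency factors in mouse ES cells, was at 190.4 and 229 in OE Zscan4, against 327 and 370.3 in OE control (log2 -0.73 ± 0.23 SE, adjusted p = 0.0353, limma). It was at 169 and 191 in KD Zscan4 against 137 and 136 in KD control, not called, with a difference between arms of 1.13 ± 0.28 SE (adjusted p = 0.00147, limma). RLTR17D_Mm was instead called in the knockdown, at 55.7 and 73.5 in KD Zscan4 against 33.2 and 28.2 in KD control (log2 1.04 ± 0.26 SE, adjusted p = 0.0135, limma). RLTR17B_Mm was called in neither arm. The loss of either OE Zscan4 library ended every overexpression call of an RLTR name except that of RLTR6B_Mm. In those fits the spread came from the 2 OE control libraries alone, which lay 0.34 apart in median on the log2 scale.

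**Figure D2:**
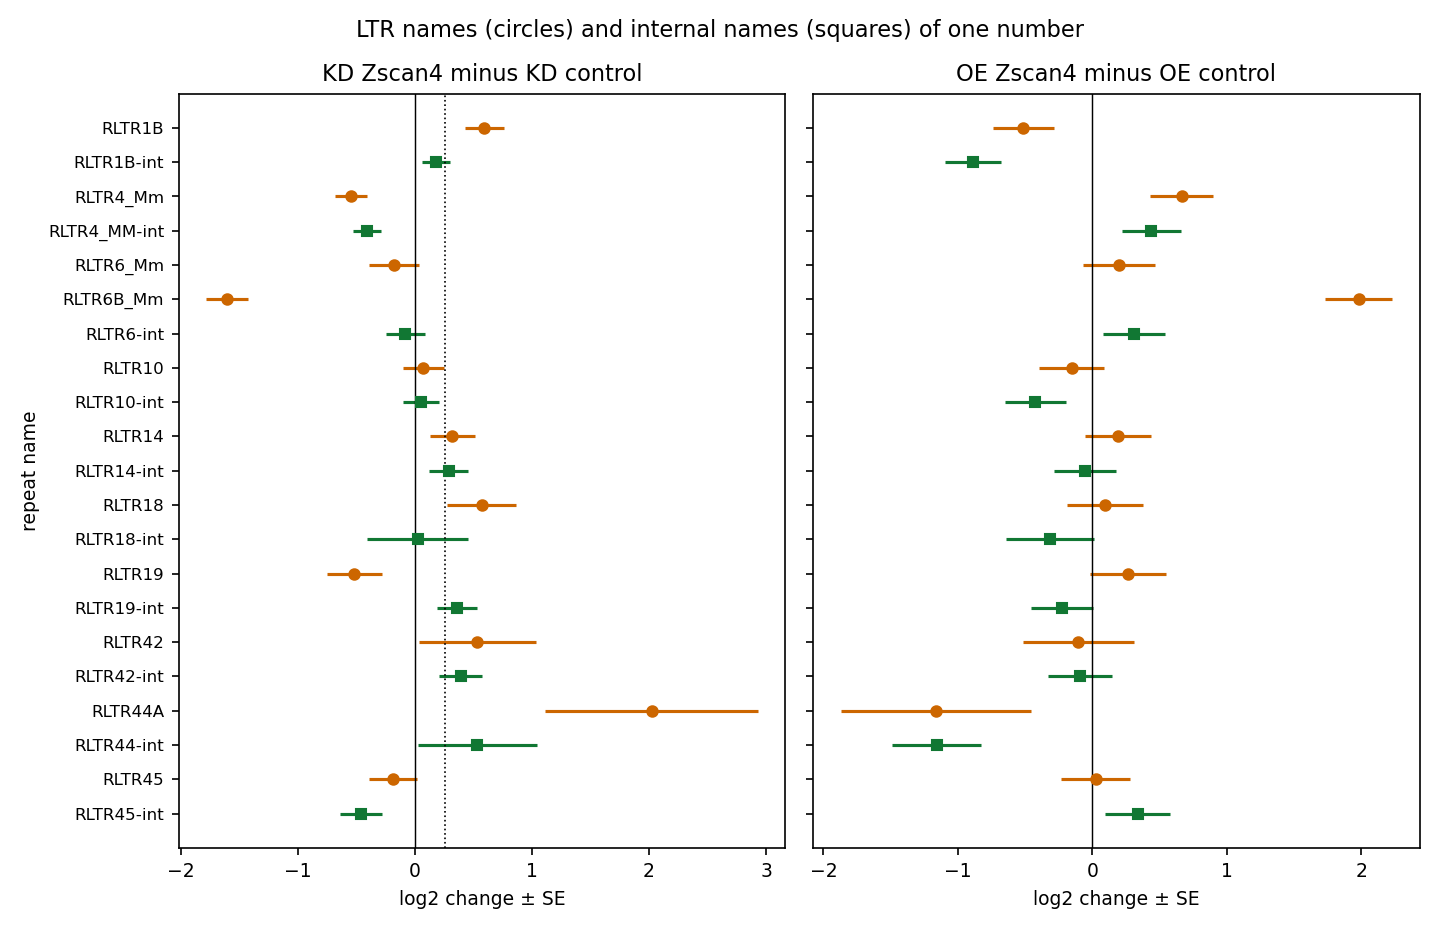
Log2 change (x axis, estimate ± SE, limma) of LTR names (orange circles) and internal names (green squares) that share a number, in the knockdown (left; dotted line, median of all repeat names) and the overexpression (right). RLTR4_Mm and RLTR4_MM-int lie left of 0 in the left panel and right of it in the right panel, and RLTR6B_Mm stands apart from RLTR6_Mm and RLTR6-int.

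Of the 15 RLTR names called in the knockdown, 10 rose and 5 fell, where 6.00% of all names rose and 2.87% fell. The median RLTR change was 0.28, beside 0.26 for all names. Both KD Zscan4 libraries lay above both KD control libraries for 73 of the 157 (46.5%), against 48.2% of all names, and below them for 22 (14.0%), against 10.0%. With TMM these were 43 (27.4%), against 24.5%, and 40 (25.5%), against 23.6%. Besides RLTR34B_MM, RLTR34C_MM, RLTR17D_Mm and RLTR1B, the names that rose were RLTR9E, RLTR23, RLTR11A, RLTR41, RLTR31C_MM and RLTR12E. RLTR23 was at 149 and 149.9 in KD Zscan4, against 91.5 and 77.8 in KD control (log2 0.82, adjusted p = 0.0062, limma). RLTR11A, one of the 5 names with the most signal in both arms, was at 595 and 609 in KD Zscan4, against 415 and 421 in KD control (log2 0.52, adjusted p = 0.0104, limma). For both, the KD Zscan4 libraries were high and the groups did not overlap, and neither was called in the overexpression (log2 0.07 for RLTR23 and 0.00 for RLTR11A). RLTR41 was at 95.3 and 98.6 in KD Zscan4, against 64.6 and 46.2 in KD control (log2 0.82, adjusted p = 0.0207, limma), and at 93.6 and 95.7 in OE Zscan4, against 149 and 138 in OE control, where it was not called (adjusted p = 0.0214 with TMM, limma). The 2 low names among the rises were RLTR31C_MM (log2 1.08) and RLTR12E (log2 0.95), with KD Zscan4 values of 38.7 to 58.8 against KD control values of 19.7 to 22.5. Relative to the median name the 10 rises were 0.26 to 1.45. With TMM over repeat names, only RLTR34B_MM of the 10 stayed called, and the split over RLTR names became 1 higher and 9 lower, where 0.391% of all names were higher and 4.04% lower. The split was 1 and 10 with median of ratios over repeat names, where 0.391% and 4.69% of all names were called, and 5 and 5 with DESeq2, where 3.39% and 2.22% were. With TMM all 5 falls stayed called, and RLTR1A2_MM, RLTR21, RLTR25A and RLTR45-int joined them. Without KD control replicate 2, 3 RLTR names were called, RLTR6B_Mm, RLTR13G and RLTR34B_MM; 9 were called without KD control replicate 1 and 24 without KD Zscan4 replicate 1. In the same fits 1.56%, 3.52% and 21.6% of all names were called.

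Of the 8 RLTR names called in the overexpression, RLTR6B_Mm, RLTR13G and RLTR30D_RN rose, and RLTR34B_MM, RLTR1B-int, RLTR27, RLTR44-int and RLTR17 fell, where 2.52% of all names rose and 1.32% fell. The median RLTR change was -0.02, beside -0.01 for all names. OE Zscan4 lay above OE control without overlap for 30 of the 163 (18.4%), against 20.0% of all names, and below it for 38 (23.3%), against 17.4%. With TMM these were 40 (24.5%), against 27.7%, and 42 (25.8%), against 22.9%. With TMM the 8 stayed called and 11 more joined them, 9 higher and 10 lower in all, and 12.4% of all names were then called, 8.87% higher and 3.48% lower. Median of ratios gave 9 and 10 as well, with 8.03% and 3.96% of all names, and DESeq2 3 and 3, with 2.64% and 1.08%. Among those that joined, RLTR10F was at log2 0.84 and RLTR13D3A1 at -0.53 with TMM. When OE control replicate 1 was left out, 8 RLTR names were higher and 22 lower, with 5.28% and 17.4% of all names, and when OE control replicate 2 was left out, 22 were higher and 8 lower, with 19.8% and 2.76% of all names. The median of all names shifted in the same way, to -0.18 without replicate 1 and to 0.16 without replicate 2.

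**Figure D3:**
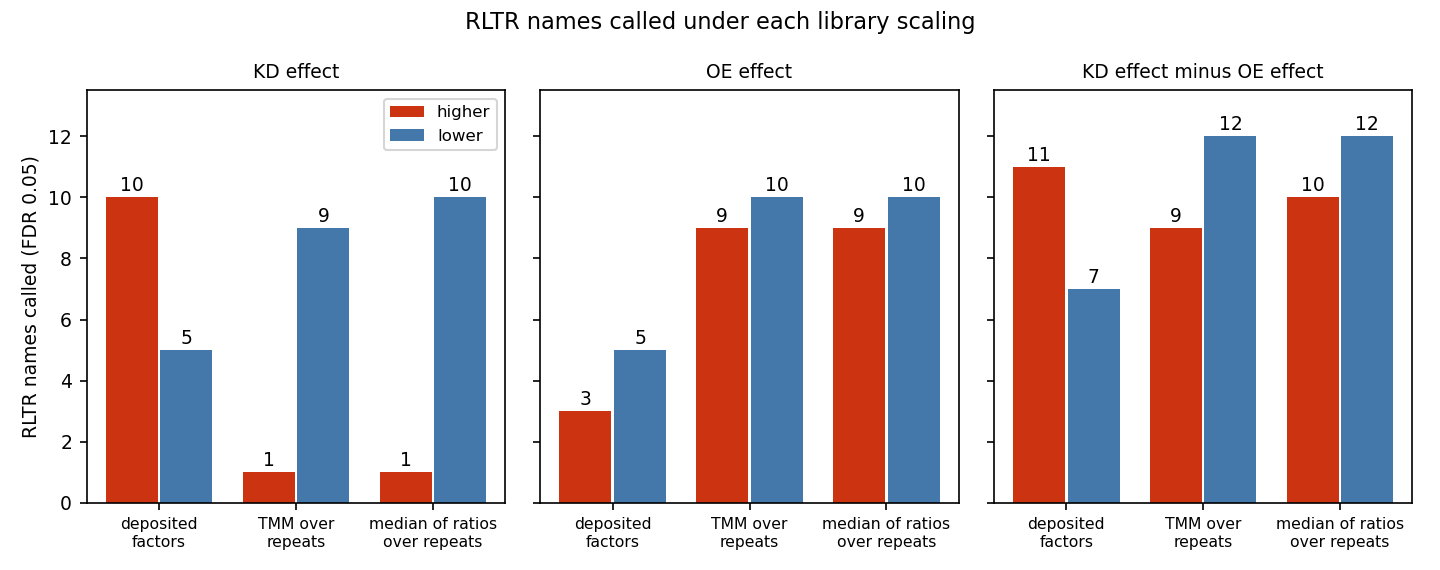
Number of RLTR names called at a false discovery rate of 0.05 (y axis) as higher (red) or lower (blue), with the deposited library factors, TMM over repeat names and median of ratios over repeat names, for the knockdown, the overexpression and the difference between arms. In the knockdown 10 are higher and 5 lower with the deposited factors, and 1 is higher and 9 lower with TMM.

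RLTR9E, of a number whose LTRs are known to be bound by pluripotency factors in mouse ES cells, had the same direction in both arms. It was at 411 and 433 in KD Zscan4, against 291 and 254 in KD control (log2 0.63 ± 0.14 SE, adjusted p = 0.00472, limma). In the other arm it was at 337 and 356 in OE Zscan4, against 189 and 245 in OE control, just short of the threshold (log2 0.69 ± 0.23 SE, adjusted p = 0.0639, limma). No groups overlapped, and the difference between arms was -0.05 ± 0.26 SE (adjusted p = 0.929, limma). With TMM the side of the threshold was exchanged, with an adjusted p of 0.0728 in the knockdown and of 5.06e-05 in the overexpression (limma).

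The changes in the 2 arms differed for 18 of the 156 shared RLTR names (11.5%), against a background of 7.73% of all 763 shared names. The difference was positive for 11 and negative for 7, where 4.19% and 3.54% of all names were so called, and with TMM 9 were positive and 12 negative, where 3.01% and 8.39% of all names were. With median of ratios 10 were positive and 12 negative, where 3.54% and 8.39% were. Without OE control replicate 1 the changes of 33 RLTR names differed, with 21.2% of all names, and without OE Zscan4 replicate 1 those of 11, with 4.72%. All 18 had changes of opposite sign in the 2 arms, as did 58 of the 59 names called among all names. Choosing names by a large difference between arms favours opposite signs, so this is no separate result about the RLTR names. Over all 156, 97 had opposite signs (62.2%), and over the 763 names 428 had (56.1%). With TMM these were 85 of 156 (54.5%), and again 428 of 763. The changes in the 2 arms had a Pearson r of -0.44 and a Spearman rho of -0.31 over the 156 RLTR names, a description of names that share libraries and depth, beside -0.31 and -0.17 over the 763 names.

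**Figure D4:**
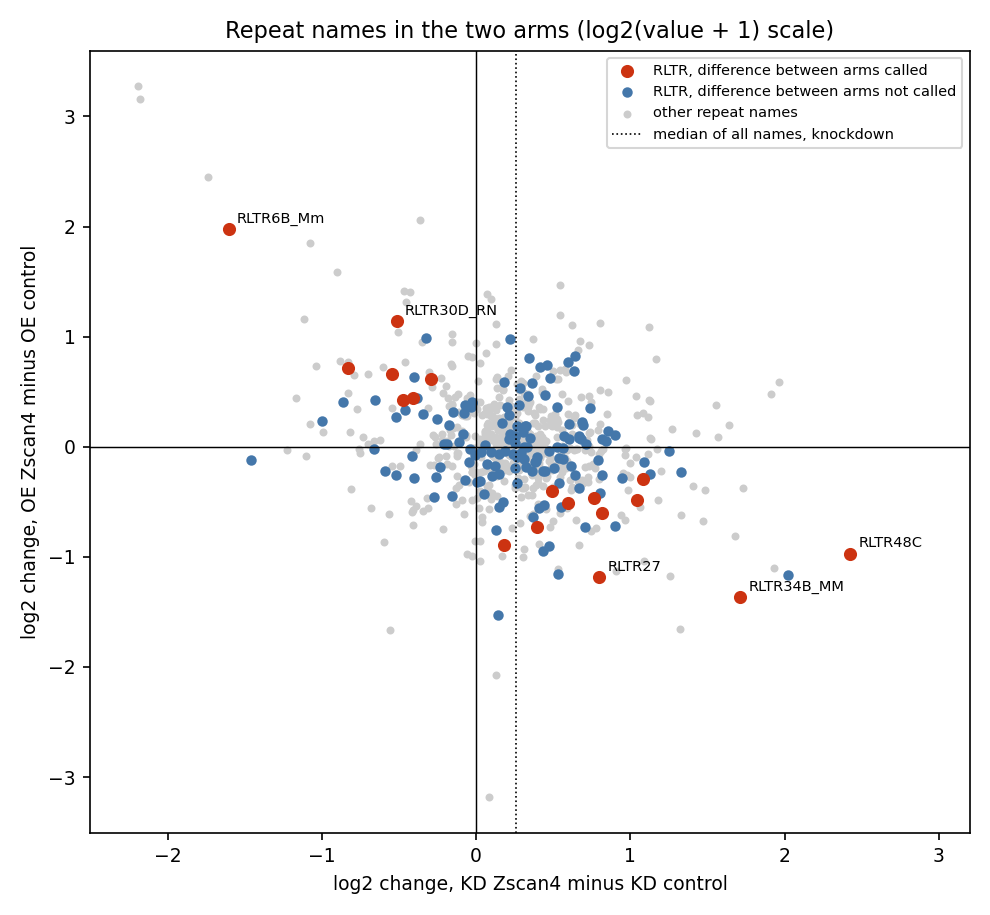
Log2 change in the knockdown (x axis) and in the overexpression (y axis) of the 763 shared repeat names, with RLTR names whose difference between arms was called in red, other RLTR names in blue and all other names in grey; the dotted line is the knockdown median of all names. The 18 red points lie at the upper left and the lower right, with RLTR6B_Mm and RLTR34B_MM at opposite ends.

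In most of these opposite changes the 2 controls lay further apart than the 2 Zscan4 groups, as in most repeat names. The arms were scaled separately, so levels across them were set as reads per 100000 repeat reads of the library and not tested. Of the 18 RLTR names whose changes differed between arms, 15 had controls at least 2 fold apart in mean, and 2, RLTR6B_Mm and RLTR48C, had Zscan4 groups at least 2 fold apart. The 59 names so called over all names had 47 and 7, and the 763 shared names 147 and 22. The Zscan4 groups lay within 1.5 fold of each other for 14 of the 18, and the controls for 1, RLTR25A. The Zscan4 groups were as near for 45 of the 59 and 679 of the 763, and the controls for 4 of the 59 and 415 of the 763. RLTR34C_MM was the one name of the 18 with a wider gap between Zscan4 groups than between controls. Over all 763 names the gap between controls was the wider one for 80.5%, and over the 156 RLTR names for 75.6%.

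RLTR34B_MM had the widest gap between controls of the 18. It averaged 49.7 per 100000 repeat reads in KD Zscan4 and 37.3 in OE Zscan4, while KD control averaged 14.3 and OE control 109.8, which is 7.67 times as much as KD control. RLTR17D_Mm averaged 19.1 in KD Zscan4 and 18.3 in OE Zscan4, beside 8.74 in KD control and 28.9 in OE control. RLTR41, at 28.9 in KD Zscan4 and 21.5 in OE Zscan4, averaged 15.8 in KD control and 37.4 in OE control. For RLTR30D_RN the order of the controls was the reverse, with 75.0 in KD Zscan4, 56.5 in OE Zscan4, 102 in KD control and 29.1 in OE control. RLTR13G averaged 1268 in KD Zscan4 and 1326 in OE Zscan4, beside 2155 in KD control and 915 in OE control. RLTR6B_Mm alone among the 4 names called in both arms had distant Zscan4 groups too, at 21.3 in KD Zscan4 and 56.2 in OE Zscan4, beside 61.9 in KD control and 15.9 in OE control. The Zscan4 family sums given above also differed between the controls, being higher in KD control than in OE control. All 7 RLTR names with a negative difference between arms had this order of the controls, and the 11 with a positive difference the reverse. The difference between arms contains the gap between controls, so choosing names by its sign favours these orders. They are no separate result about the RLTR names. Vector, antibiotic and length of selection differed between the controls of the 2 arms, and their part in these levels cannot be told apart.

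RLTR48C had the widest positive difference between arms, 3.40 ± 0.90 SE (adjusted p = 0.00359, limma), on few reads. It was at 16.2 and 9.67 in KD Zscan4 against 5.38 and 0 in KD control, and at 9.58 and 7.51 in OE Zscan4 against 20.1 and 15.4 in OE control. It was called in neither arm, and the difference missed the threshold with TMM (adjusted p = 0.0538, limma). RLTR31C_MM lost its difference with TMM as well (adjusted p = 0.0636, limma).

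Among numbers with 4 or more names, none had more than 1 called name in an arm with the deposited library factors, while RLTR34B_MM and RLTR34C_MM, and RLTR4_Mm and RLTR4_MM-int, were called together in the knockdown. Among the 22 names of number 13, some of whose LTRs are known to act as enhancers in mouse trophoblast stem cells, only RLTR13G was called, in both arms, and their medians were 0.25 in the knockdown and 0.02 in the overexpression. RLTR13C2 and RLTR13D3A1 were called in the overexpression with TMM. Number 20 had 16 names and number 10 had 10, none of them called in either arm with the deposited factors, and with TMM RLTR10F and RLTR10-int were called in the overexpression. The 8 names of number 31 had a median of 0.69 in the knockdown, with RLTR31C_MM called, and -0.14 in the overexpression. The 6 names of number 30 had medians of -0.03 and 0.36, with RLTR30D_RN called in each. The median change of LTR names was 0.30 in the knockdown, where the 10 internal names had 0.11. In the overexpression it was -0.02, where the internal names had -0.16. For number 19 the LTR and internal names had opposite signs without a call, RLTR19 at -0.52 and RLTR19-int at 0.36 in the knockdown, with 0.27 for RLTR19 and -0.22 for RLTR19-int in the overexpression.

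**Figure D5:**
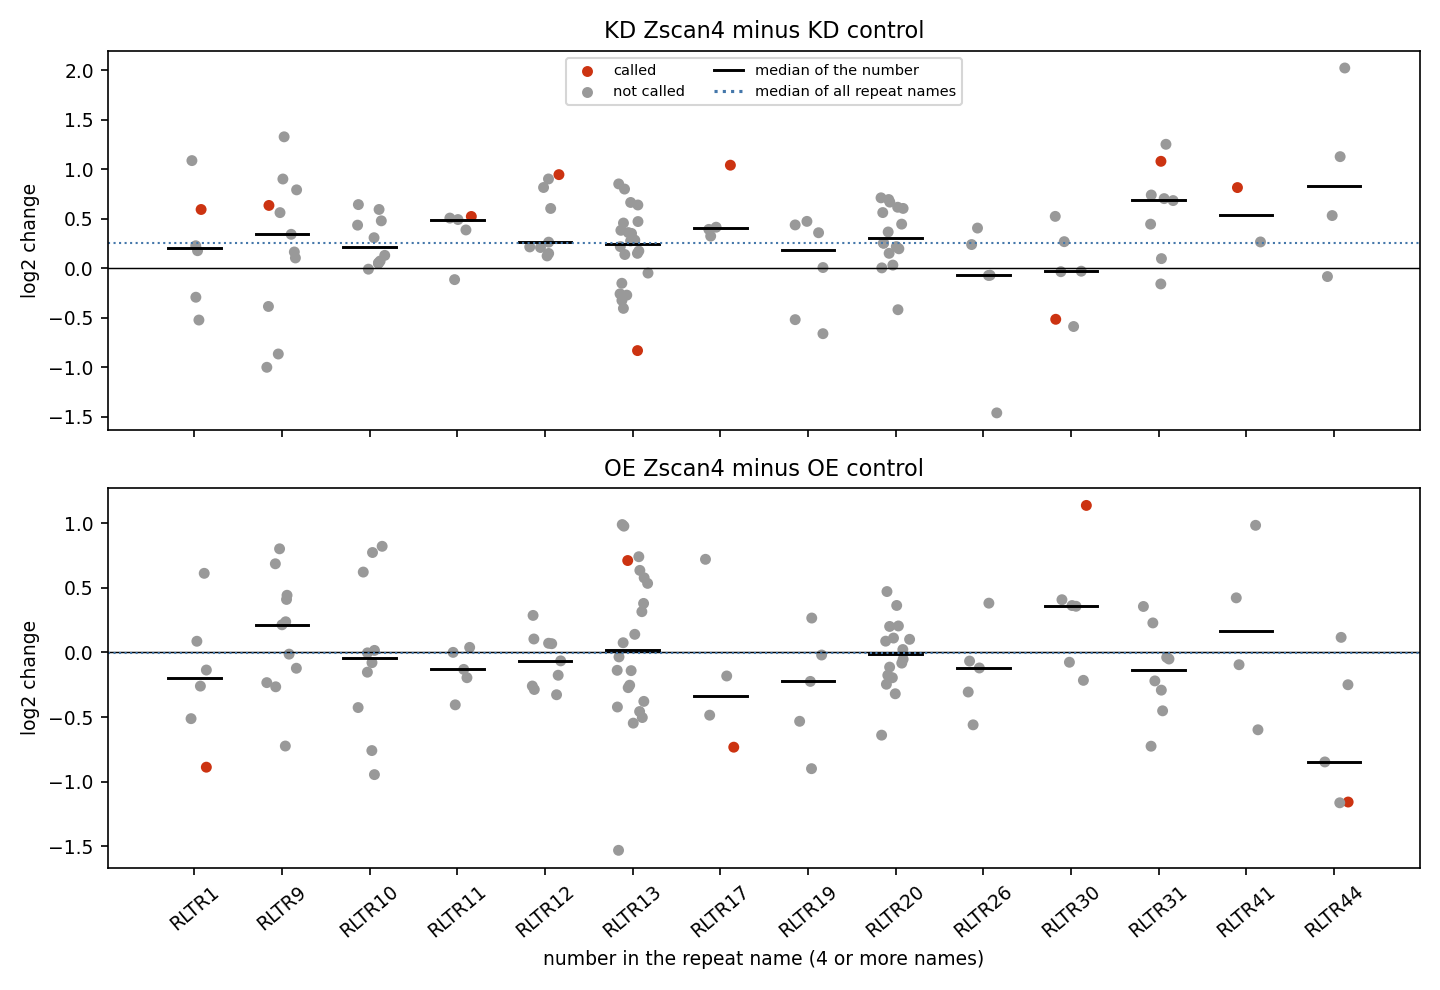
Log2 change (y axis) of each RLTR name in the knockdown (top) and the overexpression (bottom), by the number in its name (x axis, numbers with 4 or more names); red points were called, black bars are medians and the dotted line is the median of all repeat names. No number shown holds more than 1 called name in an arm, as with RLTR13G among the 22 names of number 13.

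RLTR names together took 5.05% and 5.08% of the repeat signal in KD Zscan4, against 5.46% and 5.41% in KD control, and 4.67% and 4.67% in OE Zscan4, against 5.09% and 4.80% in OE control. The Zscan4 libraries had lower shares than their controls in both arms, but a share also moves with the other repeat names. The summed RLTR signal was 15834 and 18203 in KD Zscan4, against 19502 and 18613 in KD control. It was 20424 and 20588 in OE Zscan4, against 17628 and 20951 in OE control, where the groups overlapped. RLTR13G alone made up 23.9% and 26.2% of the RLTR signal in KD Zscan4, against 40.3% and 39.0% in KD control, and 28.1% and 28.7% in OE Zscan4, against 18.7% and 18.4% in OE control. Without RLTR13G the mean share was 3.84% in KD Zscan4 against 3.35% in KD control, the reverse order, and 3.38% in OE Zscan4 against 4.07% in OE control. These sums depend on how many copies each name has and how long they are, which the tables do not hold.

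Genes known to silence retroelements were measured beside the RLTR names. Of 33 measured genes of the list, 4 rose and 16 fell in the knockdown, where 17.2% of all genes rose and 18.5% fell, and the list median was -0.16, beside 0.01 for all genes. In the overexpression 17 rose and 1 fell, where 22.3% of all genes rose and 22.1% fell, and the median was 0.19, beside 0.00. Dnmt3b, a DNA methyltransferase, was at 1823 and 1767 in KD Zscan4, against 4547 and 4666 in KD control (log2 -1.36 ± 0.05 SE, adjusted p = 6.19e-09, limma). Dnmt3l, its cofactor, fell by 0.71 on the log2 scale, Atf7ip, a partner of Setdb1, by 0.62, and Dnmt1, the maintenance methyltransferase, by 0.54. Dnmt3a, another DNA methyltransferase, was at 5512 and 5637 in OE Zscan4, against 2401 and 2653 in OE control (log2 1.14 ± 0.07 SE, adjusted p = 1.04e-09, limma). Trim28 rose by 0.80 in OE Zscan4 and fell by 0.21 in KD Zscan4, and Setdb1 rose by 0.46 in OE Zscan4 and was not called in the knockdown. Zfp809, the zinc finger protein that recruits Trim28 to murine leukemia virus, rose by 0.36 in OE Zscan4 (adjusted p = 0.0383, limma) and had log2 0.04 in the knockdown. The RLTR4 names, related to that virus, had the changes given above. Of 10 genes listed as pluripotency factors that bind proviral LTRs, 4 rose and 4 fell in the knockdown and 6 rose and 2 fell in the overexpression. The Tcf3 of this list is by its ID the gene of E2A and not Tcf7l1. It was 1 of the 4 falls in the knockdown (log2 -0.36). Nanog rose by 0.35 in KD Zscan4 and by 0.48 in OE Zscan4.

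Markers of other cell types moved with the groups too. All 9 primitive endoderm markers fell in the knockdown, and they summed to 1120 and 1025 in KD Zscan4, against 6329 and 6141 in KD control. In the overexpression 6 of 8 fell, with sums of 949 and 904 in OE Zscan4, against 1608 and 1543 in OE control. Foxa2 was at 0 in at least one knockdown library. Of the 2-cell-like markers, which include Zscan4c, Zscan4d and Zscan4f, all 9 measured fell in the knockdown and 7 of 8 rose in the overexpression. Their sums were 114 and 149 in KD Zscan4 against 2338 and 2130 in KD control, and 3569 and 3252 in OE Zscan4 against 253 and 277 in OE control, with Duxf3 and Zfp352 at 0 in at least one knockdown library. Of 8 pluripotency markers, which define the labelled cell type, 5 rose and 1 fell in the knockdown and 7 rose and 1 fell in the overexpression. They summed to 100629 and 98973 in KD Zscan4 against 90996 and 91887 in KD control, and to 110426 and 109064 in OE Zscan4 against 75079 and 74526 in OE control, high in every group. The 5 neural markers summed to 5881 and 5668 in KD Zscan4 against 4354 and 4310.4 in KD control (2 rose, 3 fell), and to 5474 and 5342 in OE Zscan4 against 3010.4 and 2878 in OE control (3 rose, 2 fell). Tubb3 made up most of the neural sums and rose in both arms (log2 0.71 in the knockdown and 1.10 in the overexpression). Of 6 fibroblast markers 1 rose and 1 fell in the knockdown, with sums of 3815 and 3543 in KD Zscan4 against 5416 and 5622 in KD control. In the overexpression 1 of 5 rose and 2 fell, with sums of 2655 and 2643 in OE Zscan4 against 2247 and 2132 in OE control. Vim made up most of the fibroblast sums. It fell in the knockdown (log2 -0.65), where Thy1 rose (log2 0.91), and rose in the overexpression (log2 0.52), where Col1a1 and Thy1 fell (log2 -1.13 and -0.98). Trophectoderm markers had 1 rise and 3 falls among 6 in the knockdown, with sums of 2557 and 2459.6 in KD Zscan4 against 2153 and 2171 in KD control. They had 2 falls among 5 in the overexpression, with sums of 2164 and 2243 in OE Zscan4 against 2718 and 2425 in OE control. Tfap2c was the largest part of the trophectoderm sums and was the 1 rise in the knockdown (log2 0.76). Mesoderm markers had 1 fall among 5 in each arm, with sums of 62.9 and 85.4 in KD Zscan4 against 153 and 129 in KD control, and of 67.0 and 60.1 in OE Zscan4 against 64.8 and 71.1 in OE control. The 703 chromosome 1 genes with enough signal had a median change of 0.56 in the knockdown, while the other autosomes ranged over -0.07 to 0.02. In the overexpression chromosome 11 stood apart, at -0.34, beside -0.07 for chromosome 1 and -0.01 to 0.09 for the others. The tables do not hold the chromosomes of the RLTR copies. The part of these genes, cells and chromosomes in the RLTR changes was not tested.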

How the data were processed

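RNA of 8 libraries was measured. Per the submitters' processing notes, reads were handled with cutadapt, HISAT2, featureCounts and DESeq2 on mm10; versions, the repeat annotation and the treatment of reads with several genomic matches are not given in the sources used here. The authors deposited gene and repeat name tables of normalised signal for each arm. Multiplied by a factor per library, 100% of values lay within 0.01 of a whole read, and these recovered reads were used for other scalings and count tests. Reads of an LTR inside a gene's exon cannot be told apart from those of the gene.

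Effects were tested with limma 3.58.1 (R 4.3.3) on log2(value + 1), with a mean-variance trend, 2 libraries against 2, two-sided, with Benjamini-Hochberg adjustment over all names or genes of a table. The difference between arms was a contrast over all 8 libraries and the 763 shared names. Alternatives were other scalings, pseudocounts, a minimum mean value, a replicate block and leaving out each library. For each arm, but not for the difference between arms, limma-voom, edgeR 4.0.16 and DESeq2 1.42.0 were also run. Levels per 100000 repeat reads across the arms were set side by side after the values were seen. Replicate numbers were those of the titles. Members and lists were chosen with earlier results of these data known. Names printed were RLTR6B_Mm, RLTR34B_MM, RLTR27 and the RLTR4, RLTR1B and RLTR6 names, the 5 with the most signal per arm, up to 10 called rises and falls per comparison, and LTR and internal pairs; RLTR11A2, RLTR21, RLTR10F, RLTR13C2 and RLTR13D3A1 were named after their values were seen. Of IDs in the gene tables, 17913 of 17938 and 18259 of 18292 matched a name. No sequence is printed, as none of these repeats was in the sources used here.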

Additional observations from a re-analysis of the deposited data

Results flagged for a closer look

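The change in the knockdown differed from that in the overexpression for 18 RLTR names, by limma's contrast over all 8 libraries. The differences below are the knockdown change minus the overexpression change on the log2 scale.

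Positive differences, with a higher value in KD Zscan4 relative to KD control than in OE Zscan4 relative to OE control, were found for 11 names. They were 3.40 for RLTR48C, 3.08 for RLTR34B_MM, 1.99 for RLTR27, 1.53 for RLTR17D_Mm, 1.41 for RLTR41 and 1.37 for RLTR31C_MM. Lower positive differences were 1.23 for RLTR34C_MM, 1.13 for RLTR17, 1.11 for RLTR1B, 1.07 for RLTR1B-int and 0.90 for RLTR11A2. RLTR48C rests on few reads and includes a value of 0 in KD control.

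Negative differences were found for 7 names. They were -3.58 for RLTR6B_Mm, -1.65 for RLTR30D_RN, -1.54 for RLTR13G, -1.21 for RLTR4_Mm, -0.90 for RLTR1A2_MM, -0.90 for RLTR25A and -0.85 for RLTR4_MM-int.

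The 4 groups have 2 libraries each, too few for a test of single libraries within a group. The knockdown and overexpression tables do not share control libraries.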

How the results depend on the processing

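In the knockdown, the 10 RLTR rises became 1 with TMM, 1 with median of ratios over repeat names and 5 with DESeq2, and the 5 falls became 9, 10 and, with all 8 libraries in one fit, 2. In the overexpression, 8 calls became 19 with either scaling; the 3 rises became 9 with either and 6 with all 8 libraries, and the 5 falls became 10 with either, 3 with DESeq2 and 3 with all 8 libraries. The 7 negative differences became 12 with either scaling. The cause was not tested. The spread of the overexpression table was pooled over all its names in the limma fit.

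Leaving out 1 library at a time gave 3 to 24 knockdown calls (1 to 19 higher, 2 to 6 lower), 1 to 30 overexpression calls (1 to 22 higher, 0 to 22 lower) and 11 to 33 differences (7 to 26 positive, 4 to 8 negative). Knockdown calls were 3 without KD control replicate 2, 9 without replicate 1, and 24 without KD Zscan4 replicate 1. Overexpression calls were 1 without either OE Zscan4 library and 30 without either OE control library, and differences were 33 without OE control replicate 1 and 11 without OE Zscan4 replicate 1. A group left with 1 library was assumed to vary like the others. In the overexpression the spread then came from the pair left whole. That was OE control, 0.34 apart in median on the log2 scale, or OE Zscan4, 0.02 apart. Called silencing and marker genes were 55 to 68 in the knockdown and 49 to 59 in the overexpression, and the share of RLTR signal was 5.05% to 5.08% in KD Zscan4, 5.41% to 5.46% in KD control, 4.67% in OE Zscan4 and 4.80% to 5.09% in OE control. Over names in both tables the share was 4.66% in OE Zscan4, against 4.67% over all its names; without RLTR13G it was 3.84% in KD Zscan4, 3.35% in KD control, 3.38% in OE Zscan4 and 4.07% in OE control.

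Same-numbered replicates were not paired by the data: their deviations had a correlation of 0.01 over 647 knockdown names and -0.02 over 730 overexpression names. With the replicate block there were 12 knockdown calls (3 falls), 6 overexpression calls and 18 differences, the same 18 names.

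RLTR6B_Mm, RLTR34B_MM and RLTR13G kept their knockdown call in all alternatives run, and RLTR6B_Mm its overexpression call. The difference between arms was not run with limma-voom, edgeR or DESeq2. It kept its call in all the other alternatives for RLTR6B_Mm, RLTR34B_MM, RLTR13G, RLTR30D_RN, RLTR4_Mm, RLTR41, RLTR17D_Mm and RLTR1B-int. Signs turned for RLTR1B-int in the knockdown (-0.077 with TMM and -0.082 with median of ratios) and for RLTR6-int (0.08 without KD Zscan4 replicate 1 and 0.15 without KD control replicate 1, its range over libraries left out being -0.31 to 0.15). Depth limits names with few reads, such as RLTR48C and RLTR27; the spread between replicates exceeded counting error in every group.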
